A study of Homo sapiens with 6 samples.

Results

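The genes described here are the centriole duplication factors STIL, PLK4, SASS6, CENPJ, CEP152, CEP192, CEP135 and NEK2. CENPJ is also known as CPAP. The 8 genes were chosen by name for their known function, with no measured value in the rule. The choice was made with earlier results of these data known. The genes are 8 of the 62492 listed for each library, and all 8 were among the 17000 genes with enough counts to be tested. RNA-seq of polyA RNA was available from HCT116, an established human colorectal carcinoma line with the genotype given as wild type. Cells received a control siRNA (siControl) or an siRNA against NONO (siNONO), each at 20 nM. There were 3 libraries per group, numbered as Sets 1 to 3 with 1 library of each group in each Set. NONO is an RNA-binding protein of paraspeckles, nuclear bodies built on a long noncoding RNA, and the comparison asks which genes change their RNA level when it is depleted. A single siNONO duplex was used, so that loss of NONO and any other effect of that duplex cannot be told apart. The series describes the libraries as biological replicates. The main p-values below weigh each change against the spread left between these libraries once differences between Sets are removed.

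A centriole is a short barrel of microtubules, and a pair of them forms the core of the centrosome, which organises the microtubules of the spindle. Each cycling cell copies its centrioles once, in S phase. CEP192 and CEP152 bring the kinase PLK4 to the wall of the parent centriole, PLK4 phosphorylates STIL, and STIL recruits SASS6, whose oligomers form the cartwheel that sets the symmetry of the new centriole. CEP135 links the cartwheel to the wall and CENPJ lengthens the microtubules, while NEK2 is a kinase that releases the linker between the centrosomes before mitosis. Several of these genes, STIL, CENPJ, CEP152, CEP135 and SASS6 among them, are mutated in inherited primary microcephaly, and their RNA is known to follow the cell cycle to different extents.

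In the annotation of GRCh37, all 8 genes are protein coding. STIL lies at chr1:47715811-47780564 on the minus strand, NEK2 at chr1:211831999-211848972 on the minus strand and SASS6 at chr1:100549119-100598511 on the minus strand. PLK4 lies at chr4:128802048-128820379 and CEP135 at chr4:56815037-56899527, both on the plus strand. CENPJ lies at chr13:25456417-25497027 and CEP152 at chr15:49005125-49103343, both on the minus strand, and CEP192 at chr18:12991361-13125051 on the plus strand.

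The promoter windows of 4 of the genes are printed because they hold the factors with the largest changes described below (STIL and NEK2), the cartwheel protein (SASS6) and the factor with the smallest change (CEP192). Each window is 300 bases from RefSeq, was placed on GRCh37 by its only exact match on that chromosome, and reads 5′ to 3′ along the gene. Capitals mark exact matches, on either strand, to motifs that are common before cell-cycle genes: CCAAT, the box bound by NF-Y, TTTGAA, the core of the cell cycle genes homology region, and the E2F motifs TTTGGCGC, TTTCGCGC and GGCGGGAA. A match on the opposite strand is printed as its reverse complement. The STIL window is chr1:47779770-47780069 (minus strand), that of NEK2 chr1:211848914-211849213 (minus strand), that of SASS6 chr1:100598437-100598736 (minus strand) and that of CEP192 chr18:12991111-12991410 (plus strand).
STIL: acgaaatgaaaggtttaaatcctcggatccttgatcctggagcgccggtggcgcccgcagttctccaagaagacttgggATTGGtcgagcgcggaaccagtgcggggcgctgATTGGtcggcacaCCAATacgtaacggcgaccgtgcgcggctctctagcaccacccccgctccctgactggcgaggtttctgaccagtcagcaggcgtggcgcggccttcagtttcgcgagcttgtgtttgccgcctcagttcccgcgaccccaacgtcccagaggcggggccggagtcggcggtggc
NEK2: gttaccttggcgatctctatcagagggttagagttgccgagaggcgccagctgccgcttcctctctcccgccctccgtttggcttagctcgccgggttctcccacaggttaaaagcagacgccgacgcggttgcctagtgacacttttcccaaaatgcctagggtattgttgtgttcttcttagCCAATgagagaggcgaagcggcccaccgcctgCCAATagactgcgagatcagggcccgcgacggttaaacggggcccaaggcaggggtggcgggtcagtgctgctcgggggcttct
SASS6: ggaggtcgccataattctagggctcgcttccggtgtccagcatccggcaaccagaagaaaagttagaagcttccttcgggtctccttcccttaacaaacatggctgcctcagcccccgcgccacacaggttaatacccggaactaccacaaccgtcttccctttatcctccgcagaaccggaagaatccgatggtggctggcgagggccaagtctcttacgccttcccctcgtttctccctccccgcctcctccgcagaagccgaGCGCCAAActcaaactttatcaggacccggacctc
CEP192: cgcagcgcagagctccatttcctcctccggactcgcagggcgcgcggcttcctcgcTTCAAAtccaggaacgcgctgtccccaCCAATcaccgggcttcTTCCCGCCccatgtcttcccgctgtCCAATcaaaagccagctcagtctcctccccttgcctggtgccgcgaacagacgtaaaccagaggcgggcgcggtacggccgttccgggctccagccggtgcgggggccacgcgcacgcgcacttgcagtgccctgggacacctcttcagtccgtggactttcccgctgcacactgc

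Positions are counted from the RefSeq start site of each window as 1. That site is the annotated gene start for CEP192, and it lies 9 bases inside the annotated gene for NEK2, 25 for SASS6 and 745 for STIL, so the whole STIL window falls within the gene span given above. STIL held 3 CCAAT matches, at -171 to -167, -138 to -134 and -125 to -121. NEK2 held 2, at -66 to -62 and -34 to -30. SASS6 had no CCAAT or TTTGAA match and held TTTGGCGC at 16 to 23. CEP192 held all 3 kinds, with TTTGAA at -194 to -189, CCAAT at -167 to -163 and -126 to -122, and GGCGGGAA at -151 to -144. Over the 8 genes, which had 10 windows because PLK4 has 3, CCAAT occurred in 5 genes, TTTGAA in 4 and an E2F motif in 3, and CENPJ, listed there as CPAP, had no match. Counted the same way over the 27305 genes of the RefSeq table, CCAAT occurred in 39.7%, TTTGAA in 18.2% and any E2F motif in 5.11%. Of its 35116 single windows, 34.6% held CCAAT, 15.2% TTTGAA, 0.652% TTTGGCGC, 0.515% TTTCGCGC and 3.16% GGCGGGAA. A match is a string of letters and does not show that a factor binds there.

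Total estimated counts ran from 21765393 to 32659002 in siControl and from 27946591 to 28715263 in siNONO. NONO itself, the check of the labels, had 496, 495 and 516 CPM in siControl and 89.5, 95.5 and 100.4 CPM in siNONO, where CPM is the count relative to a library size scaled by edgeR's TMM factors. Its log2 fold change was -2.40 (SE 0.0337, adjusted p = 2.47e-13, edgeR's quasi-likelihood F-test). Epithelial markers summed to between 2872 and 3007 TPM in siControl and between 2711 and 3002 TPM in siNONO, with CDH17 near 0 in both groups (at most 0.22 TPM). Of 7 markers of other cell types found in the files, COL1A2 was at 0 in every library, and COL1A1 (16.2 to 19.0 TPM) made up most of a sum that ran from 16.7 to 19.5 TPM.

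All 8 centriole duplication factors were lower in siNONO. Their log2 fold changes ran from -0.94 for STIL to -0.13 for CEP192, with a median of -0.55, and all 8 passed an adjusted p of 0.05. This was edgeR's quasi-likelihood test, blocked by Set, with p-values adjusted by Benjamini-Hochberg across every gene tested. Over all 17000 genes tested, 23.4% were called lower and 23.2% higher, and the median log2 fold change was -0.0048. In each Set all 8 genes were lower, and the median over the 8 was -0.56, -0.58 and -0.57 in Sets 1, 2 and 3. For every one of the 8, all siNONO libraries were below all siControl libraries in CPM, a pattern that 24% of all genes tested showed. The S phase and G2/M genes fell as well (below), and in RNA from a whole culture fewer cells in those phases and less RNA per cell cannot be told apart. STIL was among the mitotic genes that the study took on to qPCR with these libraries in view, so its direction here is not independent evidence. That qPCR was done in NONO knockout cells of the same line, with wild-type NONO, mutant NONO or neither put back, a setting other than siNONO.

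STIL, which PLK4 phosphorylates and which recruits SASS6, fell to 52.0% of the siControl level. It had 75.6, 84.6 and 75.9 CPM in Sets 1, 2 and 3 of siControl and 39.7, 42.0 and 41.1 CPM in siNONO. The lowest siControl library was thus well above the highest siNONO library. The log2 fold change was -0.94 (SE 0.0422, 95% interval -1.04 to -0.85, adjusted p = 3.74e-09 in edgeR's quasi-likelihood test), and it was the lowest of the 8 genes in every Set, at -0.93, -1.01 and -0.89. Among all 17000 genes, ordered from the lowest value up, STIL was at place 316. The interval of STIL overlapped that of NEK2 and of no other factor; the differences between factors were not tested.

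PLK4, the kinase that starts duplication, fell to 67.8% of siControl. Its siControl libraries had 45.7, 49.5 and 47.3 CPM and its siNONO libraries 32.8, 32.8 and 30.9 CPM. The libraries of each group lay close together and the groups did not overlap. The log2 fold change was -0.56 (SE 0.0488, 95% interval -0.67 to -0.45, adjusted p = 1.29e-06, edgeR's quasi-likelihood test), with -0.48, -0.59 and -0.61 in the Sets.

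SASS6, the building block of the cartwheel, fell to 66.7% of siControl. It had 33.2, 32.4 and 29.1 CPM in siControl and 22.5, 21.5 and 19.1 CPM in siNONO. In both groups Set 1 was highest and Set 3 lowest, so that the change within Sets was steadier than the levels, at -0.56, -0.59 and -0.61. The fitted log2 fold change was -0.58 (SE 0.0527, 95% interval -0.70 to -0.47, adjusted p = 1.77e-06, edgeR's quasi-likelihood test). STIL, PLK4 and SASS6, the core of the initiation step, therefore all fell, STIL with an interval that did not overlap those of PLK4 and SASS6.

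CEP152 and CEP192 are the scaffolds that bring PLK4 to the centriole, and their changes were unlike in size. CEP152 had 37.6, 37.2 and 33.4 CPM in siControl and 25.2, 24.8 and 25.3 CPM in siNONO, a log2 fold change of -0.52 (SE 0.0550, 95% interval -0.64 to -0.40, adjusted p = 6.70e-06, edgeR's quasi-likelihood test). Its 3 siNONO libraries were nearly equal, and Set 3, with the lowest siControl library, gave the smallest change, -0.40 against -0.58 in each of the others.

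CEP192, which also recruits pericentriolar material for the mitotic spindle, had 52.5, 55.3 and 52.9 CPM in siControl and 48.4, 48.6 and 50.2 CPM in siNONO. The groups did not overlap, but the highest siNONO library came near the lowest siControl library, and 91.6% of the siControl level was left. The log2 fold change was -0.13 (SE 0.0433, 95% interval -0.22 to -0.03, adjusted p = 0.0292, edgeR's quasi-likelihood test), nearest to 0 of the 8 genes in every Set, at -0.12, -0.19 and -0.08. Its interval overlapped that of none of the other 7 factors. The call for CEP192 was lost in 10 of 17 alternative fits, with DESeq2 (adjusted p = 0.198), without the block for the Set (adjusted p = 0.0997, edgeR) and without either library of Set 1 or of Set 2 among them; edgeR gave adjusted p = 0.119 without siControl 1, 0.121 without siNONO 1, 0.292 without siControl 2 and 0.234 without siNONO 2. The value stayed below 0 in all 17, from -0.22 to -0.08.

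CEP135 and CENPJ act after the cartwheel, at its link to the wall and in microtubule growth. CEP135 had 22.3, 21.9 and 20.2 CPM in siControl and 15.2, 15.0 and 13.9 CPM in siNONO, and its log2 fold change was -0.55 (SE 0.0601, 95% interval -0.68 to -0.42, adjusted p = 9.77e-06, edgeR's quasi-likelihood test). The change was almost the same in the 3 Sets, at -0.56, -0.55 and -0.54. CENPJ had 33.5, 34.8 and 33.3 CPM in siControl and 23.1, 25.3 and 23.2 CPM in siNONO, with a log2 fold change of -0.51 (SE 0.0515, 95% interval -0.62 to -0.39, adjusted p = 5.14e-06, edgeR's quasi-likelihood test) and -0.54, -0.46 and -0.52 in the Sets. Both genes had groups that lay well apart. SASS6, PLK4, CEP135, CEP152 and CENPJ kept between 66.7% and 70.5% of siControl, and all 10 pairs among these 5 had overlapping intervals.

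NEK2, the kinase of linker release, fell to 58.0% of siControl. It had 47.6, 49.4 and 44.2 CPM in siControl and 27.2, 29.3 and 25.5 CPM in siNONO. The order of the Sets was the same in both groups, with Set 2 highest and Set 3 lowest, and the groups lay far apart. The log2 fold change was -0.79 (SE 0.0476, 95% interval -0.89 to -0.68, adjusted p = 5.55e-08, edgeR's quasi-likelihood test), next after STIL in every Set, at -0.81, -0.75 and -0.79. Both CCAAT matches of NEK2 and all 3 of STIL lie before the RefSeq start site in the windows printed above, those of STIL being inside the annotated gene. Both matches of CEP192, whose change was the smallest, also lie before its start site.

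**Figure D1:**
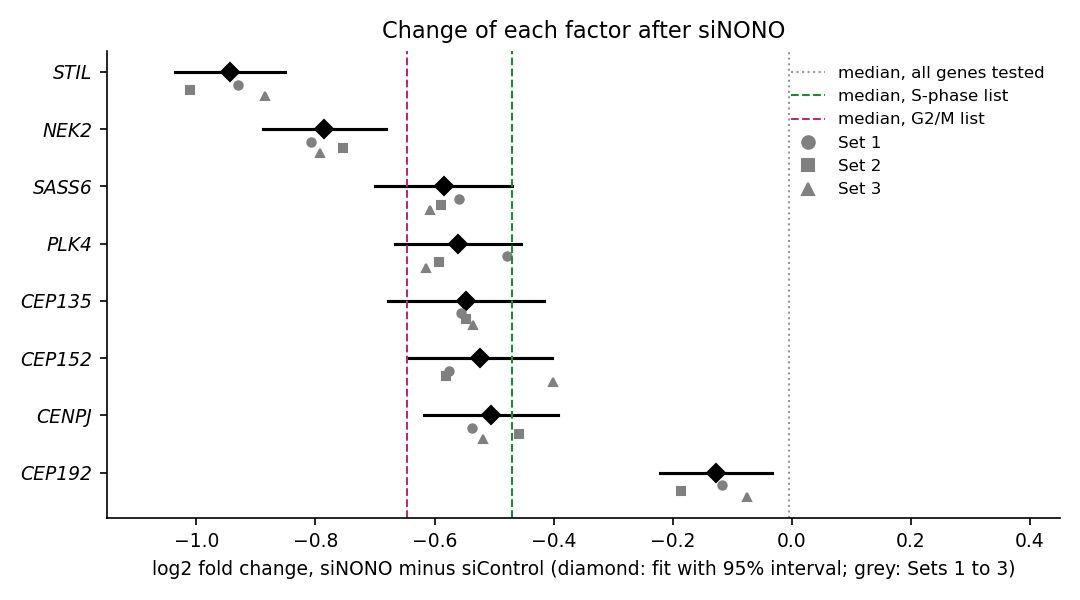
The horizontal axis gives the log2 fold change, siNONO minus siControl, of each of the 8 factors, with a diamond and line for the fitted value and its 95% interval and grey symbols for Sets 1 to 3. STIL (-0.94) and NEK2 (-0.79) stand to the left, 5 factors lie between -0.58 and -0.51, and CEP192 (-0.13) lies closest to the median of all genes (dotted line); dashed lines mark the medians of the S phase (-0.47) and G2/M (-0.65) lists.

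Levels were compared between genes in TPM, which is scaled for transcript length. In siControl the order of mean TPM was NEK2 43.99 ± 1.15, PLK4 27.4 ± 0.319, STIL 25.4 ± 1.03, CENPJ 17.6 ± 0.962, CEP192 13.2 ± 0.627, SASS6 12.1 ± 0.822, CEP152 11.7 ± 3.13 and CEP135 6.79 ± 0.178 (SD, n = 3). The ranges of neighbours in this order did not overlap, except those of CEP192 with SASS6 and of SASS6 with CEP152. In the siControl library of Set 1, CEP152 (15.28 TPM) stood above both SASS6 (12.93 TPM) and CEP192 (13.07 TPM). In siNONO the mean TPM was 23.6 ± 2.01 for NEK2, 17.1 ± 0.621 for PLK4, 12.3 ± 0.504 for STIL, 11.3 ± 0.440 for CEP192, 10.1 ± 0.602 for CENPJ, 7.62 ± 0.665 for SASS6, 6.95 ± 0.388 for CEP152 and 4.35 ± 0.282 for CEP135 (SD, n = 3). CEP192 thus stood above CENPJ in TPM, which includes the change of CENPJ in RSEM length given below. With the share left by the count test applied to the siControl TPM, CENPJ would be at 12.4 and CEP192 at 12.1, so this change of order was not seen on counts. Among neighbours in siNONO the ranges of SASS6 and CEP152 alone overlapped. Summed over the 8 genes, the level was 162, 158 and 155 TPM in siControl and 93.9, 95.1 and 91.0 TPM in siNONO, or 59.0% of the siControl mean. TPM is a share of all transcripts in a library, so these are relative levels. The fall in TPM was larger than that on counts for every factor. NEK2, the largest part of the sum, was at 23.6 TPM in siNONO, against 25.5 from its siControl TPM and the share left by counts. By limma on log2(TPM + 1), the median log2 fold change of all genes was also lower, at -0.07.

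RSEM also gives each gene a length, the mean of its isoforms weighted by their estimated abundance, so that the length moves when the mix of isoforms moves. Between 2 (SASS6) and 15 (CEP192) transcripts are listed for the 8 genes. For CENPJ the length was 2770, 2943 and 3030 bases in siControl and 3234, 3279 and 3451 bases in siNONO. The length was greater in siNONO in every Set, by 0.22, 0.16 and 0.19 on the log2 scale. How many of all genes show such a pattern was not counted. CENPJ is described first because its unadjusted p was the lowest of the 8 factors. The fitted log2 length change was 0.19 (SE 0.0218, unadjusted p = 0.00269, adjusted p = 0.428, limma with Benjamini-Hochberg adjustment over 14129 genes), so CENPJ did not pass the threshold. By this test 0% of genes were called shorter and 0% longer, with 1324 at an unadjusted p under 0.05. The log2 fold change of CENPJ was -0.51 on counts, -0.71 with offsets for the effective length, and -0.79 by limma on log2(TPM + 0.1).

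For the other 7 factors the log2 length change lay between -0.0020 (SASS6) and 0.10 (CEP152), with adjusted p from 0.837 to 1.00 in limma. For CEP152 the siControl library of Set 1 had a length of 3704 bases against 5324 and 5095 bases in Sets 2 and 3, and its siNONO libraries had 4801, 5097 and 5081 bases. That library is the one with the high CEP152 level in TPM, whereas its 37.6 CPM were close to the 37.2 CPM of Set 2. The change of CEP152 was -0.58 in Set 1 on counts, as in Set 2.

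**Figure D2:**
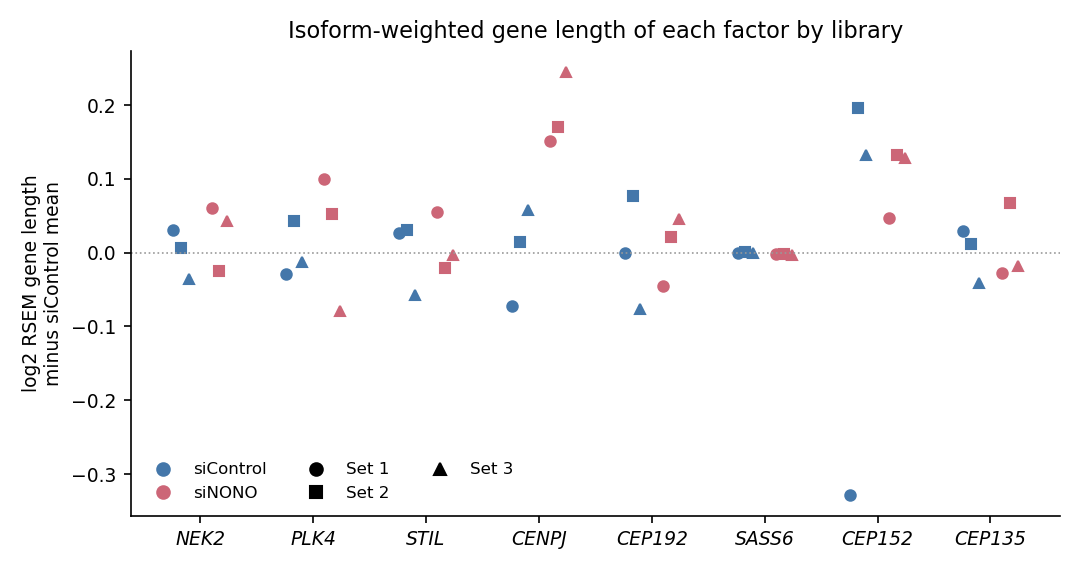
The vertical axis gives the log2 of the RSEM gene length in each library minus the siControl mean, for each factor (blue, siControl; red, siNONO; symbols, Sets). For CENPJ the siNONO libraries lie above the siControl libraries, a pattern that was not counted over all genes. The siControl library of Set 1 is far below the rest for CEP152.

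The neighbours of these factors were followed with lists of the centrosome's other parts. Beside each count below stand the shares over all genes tested, 23.4% called lower and 23.2% called higher. Of 11 partners of the initiation step, 8 were lower and 1 higher, with a median log2 fold change of -0.31, against -0.55 for the 8 factors and -0.0048 for all genes. The lowest were ASPM (-0.99), a spindle pole protein, and WDR62 (-0.62), a centriole protein, both of them also microcephaly genes. FBXW5, part of the ubiquitin ligase that marks SASS6 for degradation, was higher, at 0.31 (adjusted p = 1.32e-05, edgeR's quasi-likelihood test). Of 28 genes of elongation and capping, 20 were lower and 1 higher, with a median of -0.30. CEP97, which caps the growing centriole together with CP110, was at -1.01, TEDC1, a partner of the delta- and epsilon-tubulins, at -0.91, and TUBE1, the epsilon-tubulin, was the higher one, at 0.33, a call that limma on TPM did not keep.

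Of 14 genes of the pericentriolar material, 9 were lower (5 with effective-length offsets) and 1 higher, with a median of -0.15 (-0.23 by limma on log2(TPM + 1) and -0.24 on log2(TPM + 0.1)). TACC3 (-0.67), a spindle microtubule protein, and MZT1 (-0.59), a small subunit of the gamma-tubulin ring complex, were lowest, and TUBGCP2, another subunit of that complex, was higher (0.40). Of the linker and disjunction genes, 12 of 13 were tested, 8 were lower (5 without siControl 1 or with DESeq2) and 3 higher, with a median of -0.21 (-0.33 by limma on log2(TPM + 0.1)). This is the list of the NEK2 pathway. STK3 (-0.95), the kinase upstream of NEK2, and PLK1 (-0.46), which acts on STK3, were lower, whereas SAV1 (0.26), the partner of STK3, and NEK7 (0.52), a kinase of the NEK2 family, were higher.

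Of 14 appendage genes, 10 were lower and 2 higher (median -0.27), with NIN (-0.43) and CEP89 (-0.42) lowest and CCDC68 (0.38) and CEP83 (0.33) higher. Limma on TPM did not keep the calls of CCDC68 and CEP83, nor did effective-length offsets keep that of CCDC68. Of 9 satellite genes, 7 were lower and 1 higher (median -0.25), with CEP72 (-0.49) and BBS4 (-0.27, a call that DESeq2 did not keep) lowest. The higher one was the ubiquitin ligase MIB1 (0.14, adjusted p = 0.0241, edgeR's quasi-likelihood test), which was not higher in Set 3 (-0.03) and lost its call in 8 of 17 alternatives.

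Together these 6 structural lists hold 88 different genes that were tested, of which 62 (70.5%) were lower and 9 (10.2%) higher, with a median log2 fold change of -0.25. For the 8 duplication factors the count was 8 lower and 0 higher, and over all 17000 genes tested 23.4% were lower and 23.2% higher. Of the 88 genes, 10 were called lower with a value below the median of the duplication factors. By the definition of a median, 4 of the 8 factors lie below this cut. Among all 17000 genes tested, ordered from the lowest value up, the cut falls between PLK4 and CEP135, at 7.26% and 7.67% of the order. Whether the 88 genes differ from all genes in this count was not tested. Of the 88, TACC3 and CKAP5 are also on the G2/M list and none is on the S phase list, and of the duplication factors only NEK2 is on either.

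The surveillance list holds genes that respond to extra, missing or unfinished centrosomes. Of its 9 genes, 4 were lower (2 with effective-length offsets) and 3 higher. The median was -0.05, reached -0.14 by limma on log2(TPM + 0.1), and turned to 0.018 without siControl 1 and 0.016 without siNONO 1. TRIM37, a ubiquitin ligase that limits centrosome assembly, was at -0.52, and CASP2, the caspase of the PIDDosome, which senses extra centrosomes, was at -0.37. CDKN1A, the cell-cycle inhibitor p21, rose from 140 to 386 CPM, a log2 fold change of 1.46 (adjusted p = 4.96e-12, edgeR's quasi-likelihood test), with 1.48, 1.45 and 1.45 in the Sets.

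Because the factors are made in cycling cells, they were set beside standard gene lists for S phase and for G2/M. Of 43 S phase genes, 39 were lower and 0 higher, with a median of -0.47. Of 54 G2/M genes, 51 were lower and 0 higher, with a median of -0.65. Over all genes tested, 23.4% were lower and 23.2% higher. Only 2 S phase genes and 8 G2/M genes had a lower log2 fold change than STIL. NEK2, itself a G2/M gene, was undercut by 6 S phase genes and by 16 of the 53 other G2/M genes. SASS6, PLK4, CEP135, CEP152 and CENPJ had between 16 and 18 S phase genes and between 32 and 39 G2/M genes below them. These are 37.2% to 41.9% of the S phase list and 59.3% to 72.2% of the G2/M list. CEP192 had 39 of 43 S phase genes and 51 of 54 G2/M genes below it, so nearly all genes of both lists changed more. The study reported that siNONO slowed the proliferation of HCT116 cells in a cell viability assay. From its RNA-seq it also reported that genes of mitotic microtubule organization were lower as a set. What part of the change of the duplication factors goes with the share of cycling cells was not tested.

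The genes whose profile over the 6 libraries was most like that of each initiation factor were found by the root mean square distance between log2 CPM values centred on their mean, among 13332 genes whose average log2 CPM reached 1. For STIL they were NEMP1 (distance 0.0257), CLSPN (0.0261), an S phase gene of the replication checkpoint, and HJURP (0.0333), a G2/M gene that loads the centromeric histone CENP-A. The nearest to PLK4 were MMS22L (0.0242), a replication repair protein, PEG10 (0.0245) and ARID2 (0.0266), a chromatin remodelling subunit. The nearest to SASS6 were TMPO (0.0220), a G2/M gene of the nuclear lamina, LIN54 (0.0289), a DNA-binding subunit of the DREAM complex, and PARPBP (0.0293). The distance is dominated by the difference between the groups, so these are mostly genes with a fall of similar size: their log2 fold changes were -0.93, -0.93 and -0.93 for those near STIL, and ran from -0.59 to -0.55 for those near PLK4 and SASS6.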

How the data were processed

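PolyA RNA from 6 HCT116 cultures was sequenced by the authors from stranded libraries. They trimmed the reads, aligned them with STAR to GENCODE transcripts on GRCh37 and ran RSEM (version 1.3.1, per the labels). RSEM shares reads that match several genes, and the expected counts the authors deposited for 62492 genes are its estimated counts, not normalized. Both lengths per gene, plain and effective, come from the same run. The deposited TPM values are scaled for length and library, and the deposited FPKM values were not used. Symbols and positions came from GENCODE mapped to GRCh37, a later release than the authors', which matched 62211 of the IDs (99.55%).

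Counts were rounded and tested with edgeR (version 4.0.16, TMM, filterByExpr, quasi-likelihood F-test in its older form) with the Set as a block, since the study's methods adjusted for batch without saying what it was. P-values were adjusted by Benjamini-Hochberg over 17000 genes, threshold 0.05, and the SE was taken from the fold change and its F. The biological coefficient of variation was 3.51%. On simulated siNONO against siControl counts for 16792 genes with 200 changed, 80% were recovered at a log2 fold change of 0.7 and 100% at 1.5, with 11 false calls. The simulation gave every gene the same dispersion and no difference between Sets, so these figures need not hold for the data. Lengths were tested with limma (version 3.58.1). The S phase and G2/M lists are those of Seurat (version 5.3.0). No replicate pair agreed within sampling noise.

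Members and lists were chosen with earlier results of these data known. From each centrosome list, the text names the 2 lowest and 2 highest called genes whose average log2 CPM reached 1 (fewer where fewer were called), and for STIL, PLK4 and SASS6 the 3 nearest profiles. The value of 1 gene that this rule names is not reported here. CKAP5, not covered by this rule, was named for its place on the G2/M list after its value was seen. Alternatives were DESeq2 (version 1.42.0), other scalings, filters and dispersions, offsets for effective length, no block, limma on TPM and each library left out.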

Additional observations from a re-analysis of the deposited data

How the results depend on the processing

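STIL, PLK4, SASS6, CENPJ, CEP152, CEP135 and NEK2 kept their direction and their call in all 17 alternatives, and 7 or 8 of the 8 factors were called lower in each. Over all genes tested, the number called lower ran from 2615 to 4240 in these alternatives. CEP192 stayed lower but lost its call with DESeq2 (log2 fold change -0.13), with effective-length offsets (-0.14, adjusted p = 0.110 in edgeR), without a filter on low counts (-0.11, adjusted p = 0.0989 in edgeR), without the block (-0.13), and by limma on log2(TPM + 1) (-0.21, adjusted p = 0.0792) and log2(TPM + 0.1) (-0.22, adjusted p = 0.0732). Over the fits leaving out 1 library, CEP192 ran from -0.15 to -0.084. With the block, a library whose partner is left out adds nothing to the change, so these fits amount to leaving out a Set.

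The median log2 fold change of the 8 factors was -0.61 with effective-length offsets, -0.57 on library size alone, -0.54 without a filter, -0.65 by limma on log2(TPM + 1), -0.69 on log2(TPM + 0.1), and -0.57 to -0.53 with 1 library left out. For the initiation partners it was -0.27, -0.33, -0.30, -0.34 and -0.35 in the same order of settings, and -0.32 to -0.26 with 1 library left out. By limma with pseudocounts of 1 and 0.1, the medians were -0.39 and -0.40 for elongation and capping, -0.23 and -0.24 for the pericentriolar material, -0.29 and -0.33 for the linker, -0.35 and -0.38 for the appendages, -0.54 and -0.55 for S phase, and -0.74 and -0.76 for G2/M. These limma fits called 0 genes higher for elongation and capping, the appendages and the satellites, and 1643 and 1638 genes higher over the genome, where the median of all genes was -0.07 and -0.09. The cause was not tested.

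Effective-length offsets gave medians of -0.19 for the satellites and -0.67 for G2/M, 5 pericentriolar genes lower, 1 appendage gene higher and 2 surveillance genes lower. Without a filter the S phase median was -0.45. DESeq2 called 2615 genes lower and 2612 higher, 5 linker genes lower and 0 satellite genes higher. With 1 library left out, 5 to 8 linker genes were lower and 0 to 1 satellite gene higher, the S phase median ran from -0.47 to -0.44, and the G2/M median from -0.65 to -0.62. The surveillance median changed sign, at 0.018 without siControl 1 and 0.016 without siNONO 1, within a range of -0.094 to 0.018. The cause of these moves was not tested.

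Deviations from the group means correlated at 0.217, 0.0608 and 0.267 within Sets 1, 2 and 3 and from -0.249 to 0.0705 across Sets, over 13340 genes, so the numbers did not pair every Set clearly. SiNONO 2 correlated at 0.0705 with siControl 1 and at 0.0608 with its own partner, values too close to tell the 2 libraries apart. Without the replicate block 3068 genes were called lower and 3096 higher, and 0 satellite genes higher. It changed no other call among the 8 factors than that of CEP192. With 390 to 2491 counts per library, depth does not leave any of the 8 factors near the detection limit.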

Other observations

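Several of the 8 genes share their start region with a gene on the other strand. SASS6 starts 195 bases from TRMT13, with no overlap of exons, and TRMT13 had estimated counts of 523, 510 and 347 in siControl and 456, 458 and 328 in siNONO. These counts are not scaled for library size, which differed between the libraries, so they do not give the change of TRMT13. NEK2 starts 119 bases from the long noncoding RNA NEK2-DT, with 7, 8 and 9 counts in the siControl libraries against 0, 8 and 3 in those of siNONO, too few for a comparison. The exons of CEP152 overlap those of 2 antisense long noncoding RNAs by 148 and 186 bases, and both had at most 1 count in any library. These genes were looked up for their position after the values of the 8 factors were known.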
